A study of Homo sapiens with 4 samples.

Results

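The peaks described here were FLI1 ChIP-seq peaks away from gene starts that were called both with and without IFN-γ and carried a binding sequence of AP-1 under the summit. They were chosen by measured values. A peak of the IFN-γ list was taken if it overlapped a control peak by at least 1 bp, lay farther than 3 kb from every transcription start site (TSS) of GENCODE 44, held the heptamer TGACTCA or TGAGTCA within 100 bp of its summit, and held no run of 4 or more tandem GGAA units there. Of 39654 IFN-γ peaks, 24203 overlapped a control peak, 9887 of these were distal, and 8153 of the distal ones lay outside GGAA runs. The heptamer was found in 2334 of the 8153, and these are the AP-1 peaks of this report. They were paired with 2333 of the 30819 control peaks. Both libraries came from HK1, an established nasopharyngeal carcinoma line, labelled as overexpressing FLI1, and the immunoprecipitation was with an antibody to the Flag tag of the introduced protein. The control cells received PBS and the treated cells IFN-γ for a day. The signal is therefore that of overexpressed tagged FLI1 in 1 cell line, and the binding of AP-1 itself was not measured. There was 1 library per condition, so an effect of the treatment and any other difference between the libraries cannot be told apart, and no test of treatment was possible. All intervals below are exact, at a confidence level of 95%, and cover counting error only.

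AP-1 is a dimer of basic leucine zipper proteins of the JUN, FOS and ATF families, and its heptamer is a common feature of enhancers in epithelial cells. FLI1 belongs to the ETS family, whose DNA-binding domain recognises the core GGAA. ETS proteins and AP-1 are known to share enhancers downstream of growth factor and RAS signalling, at some of them side by side on adjoining sites. The letters GGAA also occur in the sites of other factors, NFAT and NF-κB among them, so a GGAA core is described here as a sequence and not as a FLI1 site.

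The windows of 201 bp centred on the IFN-γ summits of the 4 strongest AP-1 peaks by −log10 p are shown first, since they carry the highest signal. Sequences are from GRCh38, each is named by the protein-coding gene with the nearest TSS, and capitals mark the AP-1 heptamer and every GGAA core on either strand (TTCC on the strand printed).
C6orf141, chr6:49541195-49541395, plus strand: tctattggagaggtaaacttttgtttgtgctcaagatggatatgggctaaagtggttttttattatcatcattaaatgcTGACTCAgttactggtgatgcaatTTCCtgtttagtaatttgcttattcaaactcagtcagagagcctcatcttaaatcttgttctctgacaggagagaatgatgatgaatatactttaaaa
KLF5, chr13:73090535-73090735, plus strand: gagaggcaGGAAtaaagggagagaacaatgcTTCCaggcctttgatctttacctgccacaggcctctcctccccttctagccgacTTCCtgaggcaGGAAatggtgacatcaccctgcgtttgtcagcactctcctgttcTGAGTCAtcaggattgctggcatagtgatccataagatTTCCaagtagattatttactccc
MLN, chr6:33840175-33840375, plus strand: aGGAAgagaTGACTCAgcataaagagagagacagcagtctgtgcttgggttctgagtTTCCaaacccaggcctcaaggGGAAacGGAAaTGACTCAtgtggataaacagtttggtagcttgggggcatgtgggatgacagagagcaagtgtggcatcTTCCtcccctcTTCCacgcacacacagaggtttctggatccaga
PLCD3, chr17:45124121-45124321, plus strand: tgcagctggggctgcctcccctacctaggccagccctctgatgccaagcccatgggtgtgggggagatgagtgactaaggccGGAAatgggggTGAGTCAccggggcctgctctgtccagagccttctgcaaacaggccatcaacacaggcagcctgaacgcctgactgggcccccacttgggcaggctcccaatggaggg
These windows differ in composition and in the number of cores. The G and C content was 33.8% in the *C6orf141* window, which holds 1 core, and 64.2% in the *PLCD3* window, which also holds 1. The *KLF5* window holds 5 cores and the *MLN* window 6, one of which stands a single base in front of the second heptamer. That arrangement is the most frequent one among the AP-1 peaks, and the next 3 strongest peaks that hold it, outside exons, are shown for comparison.
TMC1, chr9:72586821-72587021, plus strand: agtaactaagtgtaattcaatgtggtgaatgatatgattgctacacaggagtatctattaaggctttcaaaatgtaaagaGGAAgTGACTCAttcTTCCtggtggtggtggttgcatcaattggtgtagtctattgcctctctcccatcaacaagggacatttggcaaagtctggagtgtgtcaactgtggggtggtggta
MICAL2, chr11:12167121-12167321, plus strand: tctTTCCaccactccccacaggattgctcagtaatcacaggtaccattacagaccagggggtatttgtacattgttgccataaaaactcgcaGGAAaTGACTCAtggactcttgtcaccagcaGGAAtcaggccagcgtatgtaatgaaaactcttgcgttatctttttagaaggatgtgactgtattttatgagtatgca
AEBP2, chr12:19712167-19712367, plus strand: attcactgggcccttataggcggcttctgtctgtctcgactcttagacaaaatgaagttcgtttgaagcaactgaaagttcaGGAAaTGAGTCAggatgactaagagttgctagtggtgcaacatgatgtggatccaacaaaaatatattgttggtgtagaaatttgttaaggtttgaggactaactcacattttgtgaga
In each of these 3 windows GGAA is followed by 1 base, A or G, and then directly by the heptamer, all on one strand.

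The heptamer was concentrated near the FLI1 summits of both libraries. Among the 8153 shared distal peaks outside GGAA runs, 28.6% (27.6% to 29.6%) held it within 100 bp of the IFN-γ summit, against 3.64% (3.35% to 3.94%) of equal windows placed 1 kb to each side. Over the known bases of the assembled chromosomes there were 0.0316 heptamers per 201 bp. In bins of 10 bp, heptamers were found at 25.3 per 1000 peaks at the IFN-γ summit and at 4.05 to 4.17 per 1000 peaks 200 bp away. The rule read the sequence at the IFN-γ summit. The windows around the control summits cover largely the same DNA, so the values there are a description and no independent measure. At the control summits the same profile stood at 22.7 per 1000 peaks at the centre and at 3.87 to 3.99 at 200 bp. Of the AP-1 peaks, 83.9% (82.3% to 85.4%) also held a heptamer within 100 bp of the control summit, and 82.1% (80.5% to 83.7%) had the same heptamer within 100 bp of both. The 2 summits lay a median of 27 bp apart, and 47.5% of the pairs lay within 25 bp. Most AP-1 peaks, 2122, had 1 heptamer, 188 had 2, and 24 had 3 or more, with a maximum of 6.

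**Figure D1:**
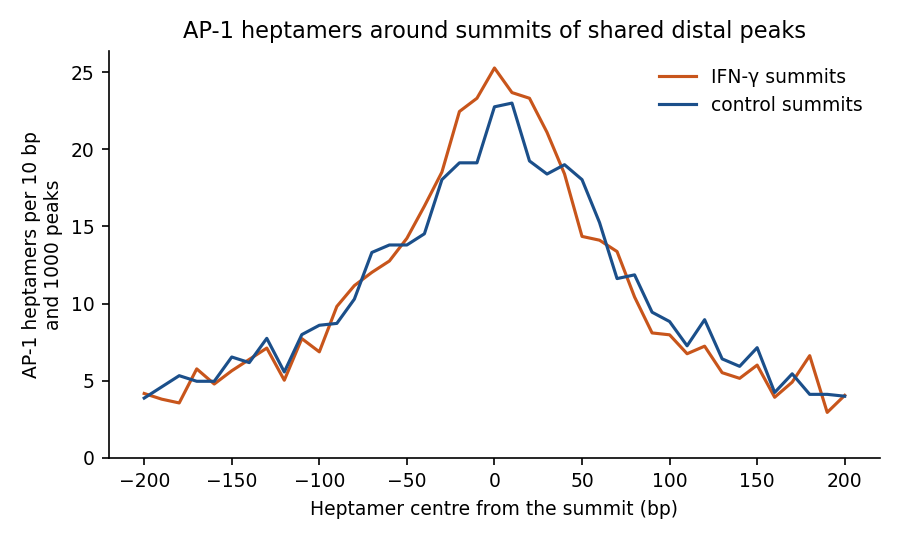
AP-1 heptamers per 10 bp and per 1000 peaks, by the distance of the heptamer's centre from the summit, for shared distal peaks outside GGAA runs in the IFN-γ list (8153 peaks) and the control list (8264 peaks). In the bin at the summit the IFN-γ line stands at 25.3 and the control line at 22.7, and both fall to about 4 at 200 bp.

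The limits of the rule cut through continuous values. The AP-1 peak closest to the distance limit lay 3011 bp from a TSS, and the shared peak with a heptamer just inside it lay 2997 bp away. The farthest heptamer counted was centred 97 bp from its summit, the nearest one not counted was centred 98 bp away, and 120 shared distal peaks had their nearest heptamer within 110 bp but outside the window. The weakest AP-1 peak had a −log10 p of 3.5 in the IFN-γ list, and the weakest control partner 3.52. In the control list the heptamer was less frequent among distal peaks outside GGAA runs and without an IFN-γ counterpart, 18.6% (17.3% to 20%) at the control summit. In the IFN-γ list it was found in 26.2% (25.3% to 27.1%) of distal peaks outside GGAA runs and without a control counterpart. It was found in 8.50% (8.05% to 8.97%) of shared peaks within 3 kb of a TSS, where peaks on GGAA runs were counted too.

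Signal at the AP-1 peaks ranged widely in both libraries. Fold enrichment, the summit pileup plus 1 over the local background plus 1 as the authors' peak caller computes it, had a median of 8.32 in the IFN-γ library, with the middle 50% between 5.86 and 13.1 and extremes of 2.50 and 103. In the control library the median of the paired peaks was 6.69, with extremes of 2.52 and 53.8. Shared distal peaks with neither heptamer nor GGAA run had medians of 7.55 and 6.79. The median AP-1 summit rested on 31 fragments in the IFN-γ library and 16.5 in the control library. A second heptamer in the window went with little difference in IFN-γ fold enrichment, with a median of 8.33 for 1 heptamer, 8.15 for 2 and 8.07 for 3 or more. Median signal differed with the position of the heptamer. The median IFN-γ fold was 9.57 where the heptamer's centre lay within 10 bp of the IFN-γ summit. It was 9.45 at 11 to 25 bp, 8.32 at 26 to 50 bp and 7.31 at 51 to 100 bp. The corresponding control medians were 6.98, 7.25, 6.49 and 6.33. No interval was computed for these medians.

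A GGAA core was nearly universal in the AP-1 windows and did not set them apart. It was present in 99% (98.5% to 99.4%) of AP-1 peaks, 99% (98.7% to 99.3%) of the other shared distal peaks and 81.7% (80.6% to 82.8%) of windows 1 kb from the AP-1 peaks. A longer FLI1 octamer, GGAAGT preceded by CA or CC, was found in 13.5% (12.1% to 14.9%) of AP-1 peaks, less than in the other shared distal peaks, 17.1% (16.1% to 18.1%), and more than in the windows 1 kb away, 1.41% (1.1% to 1.80%). Cores near the heptamer were more frequent than in windows away from the summit, as were cores at larger distances. A core within 10 bp of a heptamer was present in 48.8% (46.8% to 50.9%) of AP-1 peaks, against 22.9% (21.3% to 24.6%) of the 2550 windows 1 kb from IFN-γ peaks that happened to hold a heptamer. Single spacings from 0 to 30 bases, the most frequent one left out, had a median share of 2.14% in AP-1 peaks. In those flanking windows the median of all spacings was 1.06%. The 48.8% alone therefore does not show that cores gather beside the heptamer.

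One spacing and one orientation stood out. In 252 AP-1 peaks, 10.8% (9.57% to 12.1%), a GGAA core was separated from the heptamer by 1 base and read toward it, which is called the composite element below. The flanking windows with a heptamer held it in 1.29% (0.892% to 1.81%). With the core turned around at the same distance, the share was 0.557% (0.297% to 0.951%) in the AP-1 peaks and 1.2% in the flanking windows. Of the other spacings from 0 to 30 bases in either orientation, the next most frequent were 3 bases, 4.46%, and 4 bases, 4.28%, both also reading toward the heptamer, and the median was 2.14%. The median of all spacings in the flanking windows was 1.06%. At the control summits, whose windows hold largely the same DNA, of the 1958 windows with a heptamer 12.1% (10.6% to 13.6%) held the composite element, and no other spacing exceeded 4.55%. Of the 252 peaks with the element near the IFN-γ summit, 92.5% (88.5% to 95.4%) had it near the control summit too.

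**Figure D2:**
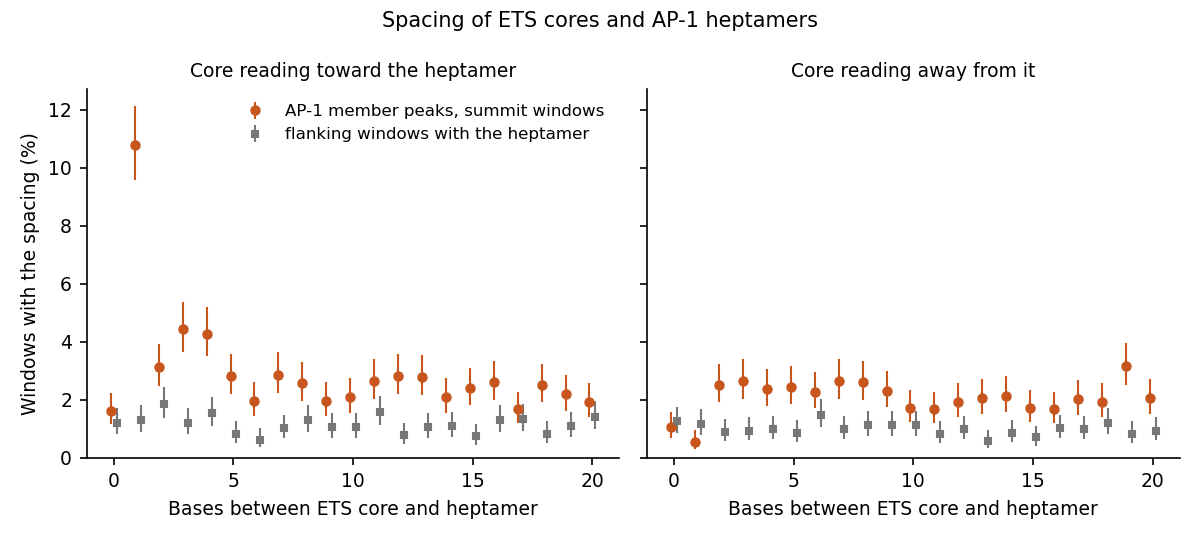
Share of windows with a GGAA core at each number of bases (0 to 20) from an AP-1 heptamer, for cores reading toward the heptamer (left) and away from it (right), in the 2334 AP-1 peaks (circles) and in 2550 flanking windows with a heptamer (squares). Bars are exact intervals. The spacing of 1 base reading toward the heptamer reaches 10.8%, and no other spacing passes 4.46%.

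The base between core and heptamer was not evenly distributed. Of 250 elements read with 3 bases in front of the core, it was A in 130, G in 89, C in 30 and T in 1. The base in front of the core was A in 169. The middle base of the heptamer, read on the strand of the core, was C in 143 and G in 107. The most frequent forms were ggaaatgactca in 71 elements, ggaaatgagtca in 59 and ggaagtgactca in 52. In the 32 elements of the flanking windows the base in between was A in 10, G in 8, C in 12 and T in 2. Elements with G in between and CA or CC in front overlap the FLI1 octamer by construction. The share with the element depended on where the heptamer lay: it was 23% (18.9% to 27.4%) with the heptamer within 10 bp of the IFN-γ summit, 15.7% at 11 to 25 bp, 8.56% at 26 to 50 bp and 2.34% (1.37% to 3.72%) at 51 to 100 bp.

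Peaks with the composite element had higher signal in the IFN-γ library than AP-1 peaks without it, while their control signal differed less. The median IFN-γ fold enrichment was 13.4 with the element and 7.93 without. The control medians were 7.26 and 6.62. The median IFN-γ pileup was 47.5 fragments with the element and 30 without. Among the 100 AP-1 peaks with the highest −log10 p in the IFN-γ library, 29.0% (20.4% to 38.9%) held the element, and among the 100 with the highest −log10 p in the control library 20% (12.7% to 29.2%) did. The median local background of the IFN-γ library, by which the fold enrichment is divided, was 2.48 fragments with the element and 2.83 without.

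**Figure D3:**
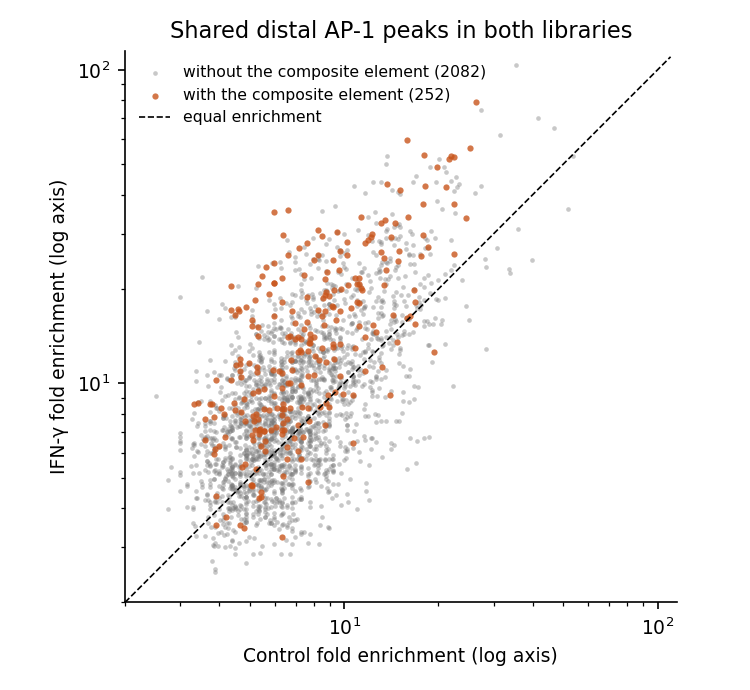
Fold enrichment of the 2334 AP-1 peaks in the control library (x) and the IFN-γ library (y), both on log axes, with the 252 peaks that hold the composite element in orange. The orange points lie mostly above the dashed line of equal enrichment, with a control median of 7.26 and an IFN-γ median of 13.4.

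Summit pileups were then compared between the libraries after scaling by 1.46, the ratio of their lowest backgrounds. The pileups were not divided by the local background. Its median at the AP-1 peaks, before scaling, was 2.83 fragments in the IFN-γ library and 1.57 in the control library. The part of this local background in the ratios below was not tested. The median scaled ratio of IFN-γ over control was 1.29 (1.27 to 1.32) at the AP-1 peaks, and 73.9% of them were above 1. It was 1.13 (1.11 to 1.14) at the other shared distal peaks and 0.997 (0.992 to 1.00) over all shared pairs. A ratio of at least 2 was reached by 351 AP-1 peaks, or 15.0% (13.6% to 16.6%). Over all 24203 shared pairs the share was 7.31%, and over the other shared distal peaks 8.87%. A ratio of 0.5 or less was found at 16 AP-1 peaks, 0.686% (0.392% to 1.11%), against 5.64% of all shared pairs and 2.3% of the other shared distal peaks. At the level of single peaks, the interval of the ratio lay wholly above the median of all shared pairs for 518 AP-1 peaks, 22.2% (20.5% to 23.9%), and wholly below it for 22, 0.943% (0.592% to 1.42%). Over all shared pairs these shares were 11.7% and 8.91%, and over the other shared distal peaks 13.9% (13% to 14.8%) and 2.65% (2.25% to 3.09%). A further scaling that sets the median of all shared pairs to 1 leaves these values nearly as they are, since that median is already 0.997. By number of heptamers in the window, the median ratio was 1.29 for 1, 1.41 for 2 and 1.39 for 3 or more, without intervals.

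The higher ratio was most marked where the composite element was present. The 252 peaks with it had a median ratio of 1.67 (1.59 to 1.83), 34.9% (29.0% to 41.2%) reached 2, and 0 fell to 0.5 or below, which allows a share of up to 1.45%. The 2082 AP-1 peaks without it had a median of 1.26 (1.22 to 1.29), and 12.6% (11.2% to 14.1%) reached 2. Shared distal peaks on GGAA runs, for comparison, had a median of 1.55 and 22.8% at 2 or more, between the 2 kinds of AP-1 peak. Since the control pileup enters the ratio, the comparison was repeated among peaks of similar control pileup. With a control pileup of at most 12 fragments the median was 1.58 (1.26 to 1.92) with the element, 1.31 (1.26 to 1.37) in AP-1 peaks without it and 1.22 (1.19 to 1.25) in the other shared distal peaks. With a control pileup over 23 fragments the medians were 1.82 (1.67 to 1.99), 1.29 (1.24 to 1.36) and 1.09 (1.06 to 1.13). By total pileup the 3 groups differed least among the weakest quartile of shared distal peaks, with medians of 1.03 (0.951 to 1.30), 1.06 (1.03 to 1.12) and 0.973 (0.951 to 0.999), with intervals that overlapped between the AP-1 peaks with and without the element. Even there, 17.1% (6.56% to 33.6%) of the 35 peaks with the element reached a ratio of 2, against 1.99% (0.914% to 3.75%) of the 452 without it. In the strongest quartile they were 2.06 (1.90 to 2.19), 1.56 (1.49 to 1.63) and 1.37 (1.34 to 1.41).

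**Figure D4:**
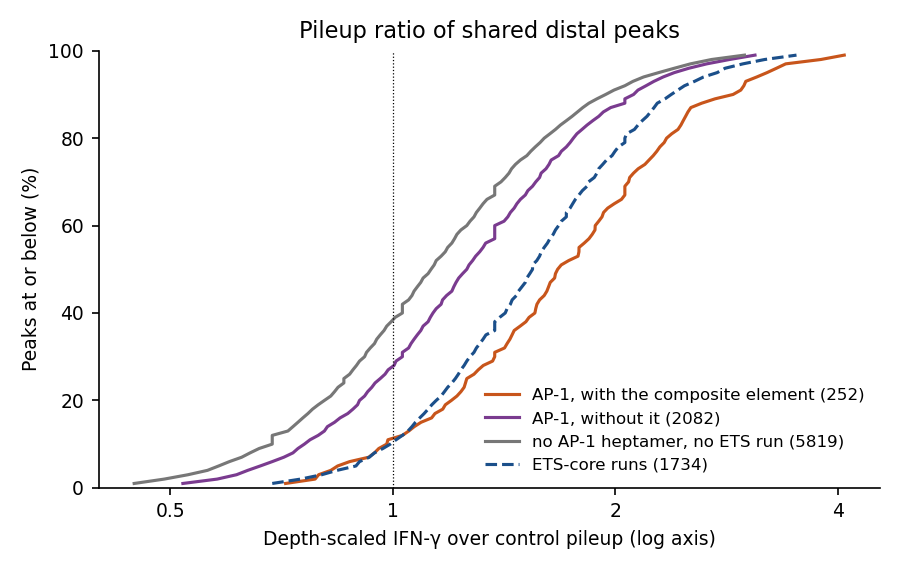
Cumulative share of peaks (y) at or below each depth-scaled IFN-γ over control pileup ratio (x, log axis) for AP-1 peaks with and without the composite element, other shared distal peaks and shared distal peaks on GGAA runs, from the 1st to the 99th percentile. The medians are 1.67, 1.26, 1.13 and 1.55.

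Seen from the other side, the share of shared distal peaks with a heptamer followed the IFN-γ signal and the ratio, and not the control signal. By decile of IFN-γ fold enrichment it went from 23.2% (20.3% to 26.2%) in the lowest decile to 36.2% (32.9% to 39.6%) in the highest. By decile of control fold enrichment it was 27.0% (23.9% to 30.1%) in the lowest and 28.2% (25.1% to 31.4%) in the highest. By decile of the ratio it went from 17.0% (14.5% to 19.8%) to 40.8% (37.4% to 44.3%). The composite element went from 0.245% to 10.4% over the same deciles of the ratio. By decile of control fold enrichment the composite element went from 2.08% (1.22% to 3.31%) in the lowest to 4.53% (3.21% to 6.20%) in the highest. These shares were read at the IFN-γ summit. Read at the control summit instead, the heptamer went from 17.6% (15.1% to 20.4%) to 39.8% (36.5% to 43.3%) and the composite element from 0.613% to 9.80%. IFN-γ fold and ratio share the IFN-γ pileup, so these 2 series are not independent of each other.

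**Figure D5:**
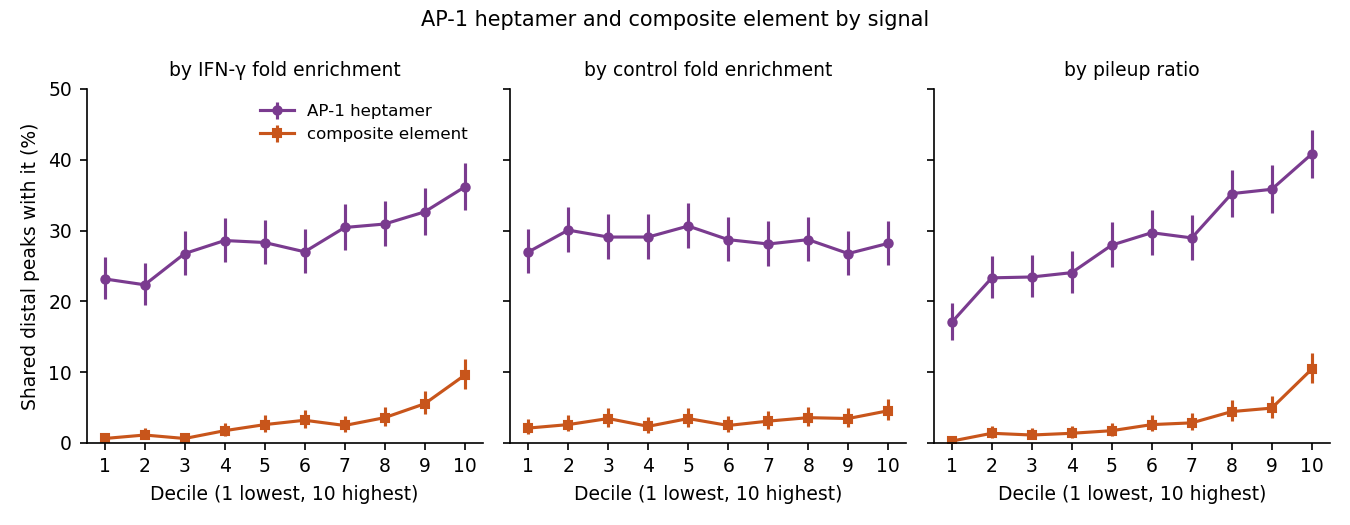
Share of the 8153 shared distal peaks outside GGAA runs with the AP-1 heptamer (circles) and with the composite element (squares), by decile of IFN-γ fold enrichment, control fold enrichment and depth-scaled pileup ratio, with exact intervals. By ratio the heptamer goes from 17.0% to 40.8% and the composite element from 0.245% to 10.4%. By control fold the heptamer stays between 26.7% and 30.6% and the composite element goes from 2.08% to 4.53%.

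Other sequences were searched in the same windows on both strands, and AP-1 peaks were not richer than the other shared distal peaks in most of them. The GAS letters TTCNNNGAA of STAT sites, which overlap the letters of ETS cores, were found in 7.84% (6.78% to 9.01%) of AP-1 peaks, 7.30% (6.65% to 8.0%) of other shared distal peaks and 5.91% of windows 1 kb away. The interferon-response letters GAAANNGAAA were found in 4.11% (3.34% to 5.0%), 5.16% and 3.11%. The TEAD letters ACATTCC, which hold a GGAA core on the other strand, were found in 4.71% (3.89% to 5.65%), 5.52% and 3.15%. RUNX letters, TGTGGT, were no more frequent at AP-1 peaks, 13.4%, than 1 kb away, 14.5%. The GC box GGGCGG was found in 6.47% (5.51% to 7.54%) of AP-1 peaks and 11.6% (10.8% to 12.5%) of other shared distal peaks, and the letters TTGCNNAA of C/EBP sites in 12.4% (11.1% to 13.8%) and 15.5% (14.6% to 16.5%). The letters CACCTG of ZEB sites were less frequent at AP-1 peaks, 13.3% (11.9% to 14.7%), than 1 kb away, 19.3% (18.2% to 20.5%), as they were at the other shared distal peaks, 13.8%. The palindrome TGACGTCA, the cyclic AMP response element that ATF and CREB proteins also bind, was found in 5 AP-1 windows, 0.214% (0.0696% to 0.499%). It was found in 0.309% (0.183% to 0.488%) of other shared distal windows and 0.107% of windows 1 kb away. The median G and C content was 47.3% in AP-1 windows and 49.8% in the other shared distal ones.

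The strongest AP-1 peak lay at chr6:49540766-49541784, in intergenic DNA 9.37 kb from the nearest TSS of *C6orf141*. Its control fold enrichment was 35.3, from 77 fragments, and its IFN-γ fold enrichment 103, from 286 fragments, a scaled ratio of 2.55 (1.98 to 3.33). It ranked 29 of all IFN-γ peaks and 732 of all control peaks by −log10 p. The peak whose heptamer lies near *KLF5*, which encodes a Krüppel-like factor of basal epithelial cells, lay at chr13:73090095-73091053, 15.6 kb downstream of the nearest *KLF5* TSS. Its control and IFN-γ fold enrichments were 20.1 and 51.9, a ratio of 2.31 (1.86 to 2.89). The *MLN* peak, at chr6:33839576-33840734 and 36.3 kb from that gene, had fold enrichments of 26.3 and 78.7 and a ratio of 1.71 (1.38 to 2.12). The *PLCD3* peak lay in an intron of that gene, a phospholipase C, at chr17:45123692-45124855, with fold enrichments of 31.4 and 62.1 and a ratio of 1.71 (1.36 to 2.17). These 4 were selected on the IFN-γ signal, which also enters the ratio, so their ratios are a description.

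Of the rest of the 10 strongest, 5 lay nearest to *GFRA2*, *LRRC1*, *KIF5B*, *TMC1* and *KIAA1755*. Their IFN-γ fold enrichments were 65.3, 45.3, 70.4, 53.3 and 53.0, against 46.7, 22.7, 41.6, 21.9 and 13.7 in the control library. The *KIF5B* peak, at chr10:32139156-32139806, was the exception in direction: its ratio was 0.904 (0.728 to 1.12), and it ranked 151 of the control peaks, the highest control rank of the 10. The ratio of the *KIAA1755* peak, at chr20:38275630-38276404, was 3.04 (2.22 to 4.21). Of the 10, the *MLN* and *TMC1* peaks held the composite element.

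The largest and smallest ratios with an interval that left out the median of all shared pairs are given as extremes. The 4 largest were at chr2:55585372-55585976 in *PPP4R3B*, with 8 control and 58 IFN-γ fragments and a ratio of 4.98 (2.37 to 12.1), and in introns of *MED13L*, a Mediator subunit, of *TCF12*, a basic helix-loop-helix factor, and of *INTS7*, an Integrator subunit. Those 3 had ratios of 4.51 (2.56 to 8.58), 4.41 (2.71 to 7.58) and 4.25 (2.23 to 8.90). The *TCF12* window shared 24 bases with another AP-1 peak. The *MED13L* and *INTS7* peaks held the composite element. The 4 smallest ratios were between 0.379 and 0.407, at peaks of 14 to 17 IFN-γ and 24 to 29 control fragments in or near *NHSL2*, *HPCAL1*, *BLOC1S5* and *SEMA4B*, and none of those 4 held the element. The *SEMA4B* pair had summits 1386 bp apart and the *PPP4R3B* pair 196 bp apart, so the 2 pileups of each were not read at the same place.

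AP-1 peaks lay a median of 13.9 kb from the nearest TSS and at most 303 kb from it. Summits fell in introns in 55.2% (53.1% to 57.2%), in exons in 3.04% and between genes in 41.8%, which is close to the other shared distal peaks at 53.5% (52.3% to 54.8%), 3.49% and 43.0%. Taken with links of up to 12.5 kb, 2136 stood alone and 99 pairs were found, and 0 stretches held 3 or more. Members per megabase were highest on chromosome 20, 1.47, and chromosome 8, 1.11, and lowest among the chromosomes that had any on chromosome 18, 0.249. The density of all IFN-γ peaks differed between these chromosomes too, at 20.03, 13.44 and 6.644 per megabase. It was highest on chromosome 19, 28.54, where members stood at 0.819 per megabase. How far the density of members follows that of all peaks was not tested. The local background, which follows the number of copies of a region as well as its chromatin, had a median of 2.83 fragments in the IFN-γ peaks of chromosome 20, 2.58 on chromosome 8 and 1.54 on chromosome 18, and its part in these counts was not tested.

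A protein-coding gene was assigned an AP-1 peak if its TSS was the nearest one or the peak lay in its body. This held for 1913 of 20033 genes, or 9.55%, of which 412 had more than 1. By nearest TSS, 3 genes had 6 AP-1 peaks each: *NFATC2*, *MYC* and *CDH13*. At *NFATC2*, a calcium-regulated transcription factor of the NFAT family, the 3 strongest had control pileups of 38, 49 and 23 fragments and IFN-γ pileups of 124, 116 and 109, with ratios of 2.24 (1.55 to 3.31), 1.63 (1.15 to 2.32) and 3.25 (2.06 to 5.35). The other 3 had ratios of 0.944, 1.60 and 1.37, each with an interval that held 1. Around *MYC*, the growth-promoting transcription factor, the 6 peaks lay 117 to 858 kb from its nearest TSS, 5 of them in introns of other annotated genes. Their IFN-γ fold enrichments ran from 4.68 to 11.5 and their control values from 3.74 to 7.82, so all were moderate, with ratios from 1.14 to 1.81. The 6 peaks of *CDH13*, a cadherin gene of 1174 kb, were all intronic, with IFN-γ fold enrichments from 6.19 to 20.8 and ratios from 0.687 to 2.43. Among the peaks of these 3 genes, the composite element was held by *CDH13* peaks with ratios of 0.874 and 1.33. It was also held by the *NFATC2* peak with 1.63 and a *MYC* peak with 1.56. *ZMIZ1*, *SEMA5A*, *KCNMA1* and *BLID* were tied with 5 each.

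Gene lists were counted beside the 9.55% of all protein-coding genes, without a test and without allowing for gene length or the distance between genes. Several listed genes had more than 1 AP-1 peak. Values given for a listed gene are those of its peak with the highest IFN-γ −log10 p, and its other peaks can differ. Of 17 genes of AP-1 and related leucine zipper proteins, 4 had an AP-1 peak: *BACH1*, *FOSL2*, *JUN* and *MAFK*. The *BACH1* peak was the strongest, with fold enrichments of 12 (control) and 22.2 (IFN-γ) and a ratio of 1.84 (1.20 to 2.87), while at *JUN* they were 6.49 and 4.90 with a ratio of 1.05 (0.526 to 2.17). Of 25 genes of squamous epithelial identity, 6 had one, led by the *KLF5* peak above. The strongest of 4 peaks assigned to *KLF4* lay 566 kb from its TSS and had fold enrichments of 8.34 and 24.7, a ratio of 2.78 (1.71 to 4.72). The peak 3.88 kb from *KRT6B*, a keratin of activated keratinocytes, had fold enrichments of 7.28 and 19.8 and a ratio of 2.92 (1.67 to 5.39). At *TFAP2A* and *TRIM29* the ratios were 1.45 (0.818 to 2.64) and 1.08 (0.528 to 2.28). The *TRIM29* peak held the composite element.

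Among 24 genes of integrins, laminins and basement membrane, 6 had an AP-1 peak. The strongest, in an intron of *LAMA5*, the laminin α5 chain, had fold enrichments of 28.3 (control) and 23.5 (IFN-γ) and a ratio of 1.26 (0.935 to 1.70). Those at *ITGA3*, *CD44*, *LAMB1* and *ITGA6* had ratios from 0.905 to 1.49, each with an interval that held 1. Of 25 genes of extracellular proteolysis and invasion, 6 had one. These included *PLAU*, which encodes urokinase, where the strongest of 3 peaks had fold enrichments of 33.9 and 22.5 and a ratio of 0.980 (0.733 to 1.32). Another was *MMP13*, a collagenase, with 7.85 and 17.0 and a ratio of 1.68 (0.982 to 2.99). The peak in *ADAM9* held the composite element and had fold enrichments of 7.46 and 22.2 and a ratio of 2.51 (1.57 to 4.17). *PLAT* had a ratio of 1.05 (0.526 to 2.17).

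The lists with the largest shares were those of EGFR and MAPK signalling, with 9 of 25 genes, and of TEAD, YAP and TGF-β signalling, with 10 of 25. In the first, the strongest were at *SPRY2* and *DUSP6*, feedback inhibitors of ERK signalling, with control fold enrichments of 13.7 and 11.3 and IFN-γ fold enrichments of 24.2 and 22.7. Their ratios were 1.70 (1.19 to 2.47) and 2.46 (1.55 to 4.05). The EGFR ligand genes *TGFA* and *EREG* had ratios of 1.53 (0.983 to 2.44) and 2.23 (1.25 to 4.19), and *SPRY4* 1.37 (0.897 to 2.14). In the second, the peak at *YAP1*, the transcriptional coactivator, had fold enrichments of 14.8 and 40.6 and a ratio of 2.19 (1.60 to 3.04). The one at *TEAD1*, the DNA-binding partner of YAP, had 10 control and 61 IFN-γ fragments and a ratio of 4.19 (2.13 to 9.17). *SMAD3*, *AMOTL1* and *CCN2* had ratios of 1.23, 1.91 and 1.59, of which the interval of *AMOTL1* (1.09 to 3.47) lay above 1. Within a list the genes were named in order of the IFN-γ −log10 p, a measure that shares the IFN-γ pileup with the ratio. The other genes of these 2 lists with an AP-1 peak, named after their values were seen, were *DUSP5*, *EPHA2*, *DUSP4* and *EGFR*, with ratios from 0.747 at *DUSP4* to 1.64 at *EPHA2*, and *TGFB2*, *VGLL4*, *TGFB1*, *CCN1* and *SMAD7*, with ratios from 0.657 at *SMAD7* to 1.41 at *CCN1*. Each of those intervals held 1.

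Of 30 IFN-γ response genes, 6 had an AP-1 peak, or 20%, against 9.55% of all protein-coding genes. This was the smallest share of the 8 lists, the next being 23.5% for AP-1 and related leucine zipper proteins. At *SOCS3*, a feedback inhibitor of cytokine signalling, the control and IFN-γ fold enrichments were 14.8 and 21.7, with a ratio of 1.24 (0.805 to 1.93). The genes of both chains of the IFN-γ receptor had one, with ratios of 1.63 (1.04 to 2.62) at *IFNGR2* and 1.70 (0.945 to 3.18) at *IFNGR1*, and *HLA-E* had 1.76 (0.998 to 3.22). Of 24 ETS family genes 7 had an AP-1 peak, the strongest at *ETV1*, with fold enrichments of 18.0 and 21.7 and a ratio of 1.55 (1.05 to 2.3). *SPDEF*, *ETV6*, *ETS2* and *ELF4* followed with ratios from 1.05 to 1.66, each with an interval that held 1.

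The windows of the strongest intergenic or intronic peak of 4 of these lists show how the 2 kinds of site were arranged where the composite element was absent.
BACH1, chr21:29217851-29218051, plus strand: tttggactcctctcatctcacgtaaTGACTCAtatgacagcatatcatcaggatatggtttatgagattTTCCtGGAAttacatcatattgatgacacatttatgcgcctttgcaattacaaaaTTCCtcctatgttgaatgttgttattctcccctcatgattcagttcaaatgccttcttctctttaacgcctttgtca
LAMA5, chr20:62359482-62359682, plus strand: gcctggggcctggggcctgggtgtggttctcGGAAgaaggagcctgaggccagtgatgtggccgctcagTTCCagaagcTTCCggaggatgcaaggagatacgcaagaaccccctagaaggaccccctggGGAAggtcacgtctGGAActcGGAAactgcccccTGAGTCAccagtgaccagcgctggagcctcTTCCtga
PLAU, chr10:73894534-73894734, plus strand: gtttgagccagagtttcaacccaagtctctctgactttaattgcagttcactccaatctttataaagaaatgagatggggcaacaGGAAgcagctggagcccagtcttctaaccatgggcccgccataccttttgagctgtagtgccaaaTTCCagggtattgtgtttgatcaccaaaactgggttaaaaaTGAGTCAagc
SPRY2, chr13:80048888-80049088, plus strand: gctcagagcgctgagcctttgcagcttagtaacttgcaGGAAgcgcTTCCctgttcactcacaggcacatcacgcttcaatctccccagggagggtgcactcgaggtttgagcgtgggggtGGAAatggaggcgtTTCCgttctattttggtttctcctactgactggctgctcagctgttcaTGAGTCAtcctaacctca
In the *BACH1* window the heptamer stands alone at one side, and in the *LAMA5* window it is flanked by several cores, none of them a single base away. In the *PLAU* and *SPRY2* windows the heptamer lies near the edge, away from the summit.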

How the data were processed

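Flag ChIP-seq peaks of 1 control and 1 IFN-γ library were used as the authors deposited them. Per the methods and labels, the authors' pipeline was Cutadapt 1.18 for trimming, Bowtie2 2.3.4.1 for alignment (GRCh38), Picard for duplicate removal, MACS2 2.1.2 for calling in each library, and ChIPseeker for annotation. Whether the input entered the calling is not given in the sources used here, and the input libraries were not analysed here. The deposited lists give a fold enrichment (a linear ratio), −log10 p and −log10 q values, the summit, and a display score that was not used.

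The lists hold no read totals. Whole-fragment pileups and backgrounds were solved from the deposited fold and −log10 p for 100% of peaks, with a largest relative error of 6.21e-06. Median pileups were 16 and 22 fragments in the control and IFN-γ library. Pileups were scaled by the ratio of the lowest backgrounds, 1.06 and 1.54. Where an AP-1 peak overlapped several control peaks, the nearest summit was its partner. Shares have exact Clopper-Pearson intervals, medians exact order-statistic intervals and single ratios exact binomial intervals. Peaks are not replicates of a condition, and no test of treatment was made. How reads from repeated sequence were placed is not given in the sources used here and was not tested.

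The peaks and gene lists were chosen with earlier results of these data known. Named were the 10 strongest peaks by −log10 p, the 4 largest and 4 smallest ratios with an interval that left out the median of all shared pairs, the genes with the most peaks, and up to 5 genes a list. Some items that this rule names are not reported here. Sequences were printed for the strongest peaks, for those with the most frequent spacing and for 4 lists, outside chromosome 8 and outside exons. The other motifs and the composite element were described after values were seen. Alternatives were stricter q-values and overlaps, other TSS distances, a narrower motif window, shorter GGAA runs and another scaling. Steps were tested on simulated data. The computations used Python 3.11.15, numpy 2.4.6, scipy 1.17.1, pandas 2.3.3 and matplotlib 3.10.9.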

Additional observations from a re-analysis of the deposited data

How the results depend on the processing

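Of 122 values recomputed under alternatives, 102 stayed within their interval, or within 1.5 times for counts. The median ratio of AP-1 peaks ranged from 1.26 to 1.37. Values of the other groups of peaks and of the flanking windows were not recomputed, so the comparisons with them were not examined here. With a motif window of 50 bp, AP-1 peaks became 1547, the share of shared distal peaks with the heptamer 18.4%, the share with a heptamer at the control summit 69.0%, cores 93.9%, cores within 10 bp 53.7%, octamers 11.6%, the median ratio 1.37, ratios of at least 2 17.7% and the composite element 14.6%. Over 10 kb from a TSS there were 1432 AP-1 peaks, 49.5% intronic, at 1203 genes. With an overlap of 50% of each peak the median ratio was 1.26 and the share at 2 or more 12.4%. With summits within 100 bp the heptamer share was 29.9%, and 91.1% at the control summit, where a q-value under 1e-05 gave 87.7%. Leaving out runs of 2 or more units gave 29.7%. Genes with a TSS within 100 kb numbered 3723, and cores within 5 bp 35.4%. Narrower limits lower the counts of peaks and genes by construction, and the cause of the other shifts was not tested. The median ratio with the composite element ranged from 1.62 to 1.78. The alternatives for the composite element, and leaving out peaks that share 24 bases, were chosen after seeing the data. No paired analysis was possible because there were no replicates. Depth limits single peaks: the median AP-1 summit held 16.5 control fragments.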

Other observations

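The composite element was also frequent at distal AP-1 peaks outside GGAA runs that were called in the IFN-γ library alone. Of 2438 such peaks, 11% (9.78% to 12.3%) held it, and no other spacing exceeded 3.57%. Of the 607 distal AP-1 peaks outside GGAA runs called in the control library alone, read at the control summit, 4.61% (3.09% to 6.60%) did. Of the 1206 shared AP-1 peaks within 3 kb of a TSS and outside GGAA runs, 9.87% (8.24% to 11.7%) did.

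Some AP-1 peaks lay on repeated sequence. Of the 2334, 185, or 7.93% (6.86% to 9.10%), shared 24 bases with at least 1 other. One stretch of 24 bases that holds the heptamer was common to 10 of them on 7 chromosomes, with IFN-γ fold enrichments from 4.29 to 18.1 and a median ratio of 0.992. A CA repeat was common to 10 others, with a median ratio of 1.37. The composite element was present in 9.73% (5.87% to 14.9%) of the peaks that shared 24 bases and in 10.9% (9.60% to 12.3%) of the rest. How uniquely reads map to these stretches was not tested.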
